A study of Mus musculus with 10 samples.

Results

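The genes described are 10 members of the integrated stress response program, chosen by name: the transcription factor genes *Atf4*, *Atf5*, *Atf3* and *Ddit3*, the phosphatase subunit gene *Ppp1r15a*, and the effector genes *Asns*, *Chac1*, *Trib3*, *Sesn2* and *Ddit4*. They are 10 of the 55453 gene symbols in the count table, of which 28011 had a count in any aorta. RNA was sequenced from whole aortae of 10 male C57BL/6 mice, with 1 library per mouse. The young group held 5 mice of 14.5 weeks and the old group 5 mice of 92.5 weeks, with no other treatment or engineered allele named in the labels. All mice were killed at the same time, the fat around the vessel was removed, and stranded mRNA libraries were made from total RNA. The comparison asks how transcript levels differ between young and old aortae.

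The integrated stress response begins when a kinase phosphorylates the translation initiation factor eIF2. General protein synthesis then slows, while the mRNA of *Atf4* is translated better through short upstream reading frames. ATF4 protein switches on genes for amino acid supply, redox control and cell death, among them *Atf3*, *Ddit3* and *Trib3*. The protein made from *Ppp1r15a* directs a phosphatase to eIF2 and so ends the response. Because ATF4 is set largely at translation, mRNA levels describe its transcript and its targets, not the protein.

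All 10 genes lie on autosomes of the mouse build GRCm38 and are annotated as protein coding. *Atf3* spans chromosome 1 from 191170296 to 191218039, *Atf4* chromosome 15 from 80255184 to 80257541, and *Ppp1r15a* chromosome 7 from 45522916 to 45526268. *Atf5* lies on chromosome 7 from 44812256 to 44816658, and *Ddit3* and *Ddit4* on chromosome 10 from 127290774 to 127296288 and from 59949669 to 59951834. *Trib3* and *Chac1* lie on chromosome 2 from 152337422 to 152344032 and from 119351229 to 119354381. *Asns* lies on chromosome 6 from 7675169 to 7693254, and *Sesn2* on chromosome 4 from 132492032 to 132510501. The stretch upstream of *Atf3* is shown first, since this gene had the largest difference with age among the 10. The capitals mark a match to the C/EBP-ATF response element, the composite site to which ATF4 can bind with a C/EBP partner, searched as TGATGNAA on both strands. The sequence is that of RefSeq on GRCm38.p6, 5′ to 3′ on the strand of the gene, which is minus, at chr1:191183334-191183583. It covers the 250 bases before the annotated start, and the match lies 110 to 103 bases before that start, on the opposite strand. This start lies inside the span of the gene given above, which takes in longer transcripts from further upstream.

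Atf3: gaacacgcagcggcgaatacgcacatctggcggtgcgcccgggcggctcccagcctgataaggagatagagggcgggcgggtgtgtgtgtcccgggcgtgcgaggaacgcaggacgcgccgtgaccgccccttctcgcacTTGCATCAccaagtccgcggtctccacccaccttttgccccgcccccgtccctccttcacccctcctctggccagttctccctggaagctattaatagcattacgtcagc

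Shorter stretches follow for the other members that hold a searched motif before their start, each given on the strand of its gene with the match in capitals. *Asns* (chr6:7693210-7693262, minus strand) and *Chac1* (chr2:119351019-119351086, plus strand) hold the same kind of element as *Atf3*. The *Asns* stretch lies before its RefSeq start, but most of it, with the match, lies inside the span of the gene given above. *Ppp1r15a* (chr7:45526269-45526310, minus strand) holds a cyclic AMP response element, searched as TGACGTCA. *Ddit3* (chr10:127290543-127290587, plus strand) holds an AP-1 site, the binding sequence of FOS and JUN proteins, searched as TGACTCA or TGAGTCA.
Asns: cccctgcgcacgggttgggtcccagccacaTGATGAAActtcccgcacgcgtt
Chac1: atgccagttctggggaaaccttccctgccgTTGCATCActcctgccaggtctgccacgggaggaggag
Ppp1r15a: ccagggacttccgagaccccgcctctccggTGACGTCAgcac
Ddit3: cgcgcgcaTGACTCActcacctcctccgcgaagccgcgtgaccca

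In the window from 250 bases before to 50 bases after each start, TGATGNAA was found for 4 of the 10 genes, *Atf3*, *Asns*, *Chac1* and *Trib3*. In *Trib3* the match lay 15 to 22 bases after the start. The same letters occurred in 3.97% of 32851 RefSeq promoters of that length. The cyclic AMP response element occurred in 1.79% and the AP-1 site in 5.20% of these promoters. The endoplasmic reticulum stress response element, searched as CCAAT and CCACG with 9 bases of any kind between them, was found for none of the 10 genes and in 0.119% of all promoters. No match of 1 motif overlapped that of another. A match is a description of the letters in the window, and of the 4 genes with TGATGNAA, *Atf3* passed the test with age described next, while *Asns*, *Chac1* and *Trib3* did not.

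Library totals ranged from 19640401 to 22886153 counts, and counting error alone gives a coefficient of variation of 10.1% to 22.6% for *Chac1*, *Trib3* and *Asns* and of 1.52% to 7.07% for the other members. The 9 smooth muscle markers summed to between 744382 and 957328 normalized counts in every aorta, so that the main cell type of the labelled tissue was present in each. Mitochondrial genes took 11% of the counts in old replicate 2 and 4.50% to 6.51% in the other 9 libraries. Without old replicate 2, the calls of *Atf3*, *Atf4* and *Ppp1r15a* stood (edgeR adjusted p = 0.0177, 0.0287 and 0.0143).

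Levels are given as normalized counts, which are the deposited counts divided by size factors that equalize the libraries. All 10 genes passed the filter on low counts that kept 14614 genes. Differences with age are log2 fold changes (log2FC) of old over young from edgeR's quasi-likelihood test, and a gene was called where its Benjamini-Hochberg adjusted p over all tested genes was below 0.05. Of the 10 genes, 3 were called, all of them lower in old aortae: *Atf3*, *Atf4* and *Ppp1r15a*. By comparison, 11.5% of all tested genes were called, 4.99% lower and 6.48% higher in old aortae. The other 7 genes did not pass, and 4 of the 10 had an unadjusted p below 0.05, against 3902 of the 14614 tested genes. Of the 10 estimates 9 were negative, with a median log2 fold change of -0.17, against a median of 0.0034 over all tested genes, of which 49.2% were negative. This count of signs is a description, since the members were chosen with earlier results of these data known. The signs of *Ddit4*, *Asns*, *Sesn2* and *Ddit3* also changed when single mice were left out. DESeq2, which called 13.6% of the genes it tested, also called 3 members lower and none higher, as did limma-voom.

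**Figure D1:**
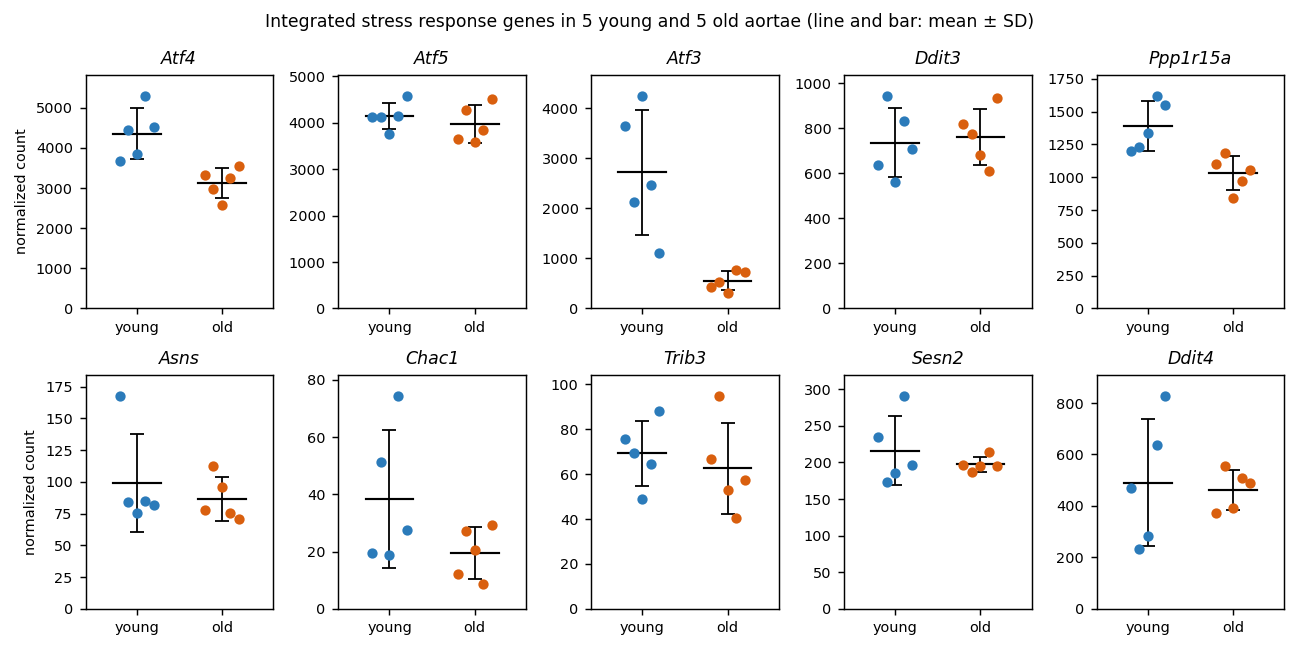
Normalized counts (vertical axes, each from 0) of the 10 genes in 5 young and 5 old aortae; each point is 1 aorta, and the line and bar give the mean and SD. The points of the 2 groups stand apart for *Atf4*, *Atf3* and *Ppp1r15a* and overlap for the other 7 genes.

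*Atf4* encodes the central transcription factor of the response. In young aortae its normalized counts were 3675, 4454, 3846, 5299.6 and 4521 in replicates 1 to 5. In old aortae they were 3318, 2985, 2571, 3263 and 3544. Every old aorta was below every young aorta, and the nearest values were old replicate 5 and young replicate 1. The mean fell from 4359 ± 642 (SD, n = 5) to 3136 ± 373, which is 71.9% of the young level. Its log2FC was -0.47 (SE 0.11, 95% interval -0.69 to -0.24, edgeR adjusted p = 0.0129).

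*Atf5* encodes a related factor that is likewise translated through upstream reading frames. Its young values were 4127, 4113, 3765, 4141 and 4579 normalized counts, and its old values 3644, 4277, 3576, 3851 and 4510.2. The groups overlapped, with old replicate 5 second only to young replicate 5. Its log2FC was -0.05 with an interval from -0.21 to 0.11 (edgeR adjusted p = 0.703). Of its exonic sequence 4.11% is overlapped on the other strand by *Nup62* and *Il4i1*, and the strand setting of the counting is not given in the sources used here.

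*Atf3* encodes a stress-induced factor of the same family that mostly represses transcription. In young aortae its normalized counts were 3654, 2122, 4253, 2478 and 1117 in replicates 1 to 5. In old aortae they were 437, 532, 315, 769 and 734. The lowest young aorta, replicate 5, was still above the highest old aorta, replicate 4. The mean fell from 2725 ± 1246 (SD, n = 5) to 557 ± 194, which is 20.5% of the young level. Its log2FC was -2.28 (SE 0.39, 95% interval -3.15 to -1.41, edgeR adjusted p = 0.00596). *Atf3* was also among the most variable genes within a group. The highest young aorta had 3.81 times the count of the lowest, and the dispersion of *Atf3* exceeded that of 97.7% of tested genes.

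*Ddit3* encodes CHOP, a factor linked to cell death under lasting stress. Its young values were 636, 945, 563, 832 and 710.0 normalized counts, and its old values 818, 774, 681, 611 and 933. The groups overlapped throughout, and the mean was 737 ± 153 in young and 764 ± 124 (SD, n = 5) in old aortae. Its log2FC was 0.06 (95% interval -0.26 to 0.38, edgeR adjusted p = 0.844), the only positive estimate of the 10. The annotation has 2 gene models under this symbol, and *Mars* and *Gm4189* overlap 4.73% of its exonic sequence on the other strand.

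*Ppp1r15a* encodes GADD34, the inducible subunit that directs protein phosphatase 1 to eIF2. Its normalized counts were 1197, 1232, 1337, 1620.4 and 1553 in young aortae and 1101, 1188, 844, 971 and 1057 in old aortae. All old values lay below all young values, but the gap between young replicate 1 and old replicate 2 was narrow. In CPM, the counts scaled to library totals with TMM factors, the lowest young value was 55.2 and the highest old value 55.3, so that the groups then overlapped slightly. The mean fell from 1388 ± 190 (SD, n = 5) to 1032 ± 131, with log2FC -0.42 (SE 0.10, 95% interval -0.65 to -0.19, edgeR adjusted p = 0.0211). This call depended on single libraries. The edgeR adjusted p was 0.0553 without young replicate 4, 0.0536 without young replicate 5 and 0.0515 without old replicate 4.

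In the normalized counts, the groups thus did not overlap for 3 of the 10 genes, all lower in old aortae, against 4.55% of all tested genes. With TMM-scaled CPM or scaling by library total alone the number was 2.

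*Asns* encodes asparagine synthetase, the classical amino acid target of ATF4. Young replicate 1 had 168 normalized counts, while the other young aortae had 84.5, 75.8, 85.0 and 82.0. The old aortae had 77.9, 112, 96.0, 75.2 and 70.97, so that the groups overlapped and only young replicate 1 stood apart. Its log2FC was -0.19 (95% interval -0.68 to 0.30, edgeR adjusted p = 0.653), and it was 0.08 without young replicate 1 (edgeR adjusted p = 0.774). That library also had the highest sum of 7 adipocyte markers, 20611 normalized counts against 4569 to 11084 in the other 9 libraries. Its sum of 6 Schwann cell and neuron markers was also the highest, 1159 normalized counts against 384 to 828. Their part in the *Asns* value was not tested.

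*Chac1* encodes an enzyme that breaks down glutathione. Its young values were 19.4, 51.3, 18.9, 74.4 and 27.7 normalized counts and its old values 12.0, 27.2, 20.5, 8.68 and 29.2. Young replicates 2 and 4 were above every old aorta, and the other young aortae lay among the old ones. The mean was 38.3 ± 24.1 in young and 19.5 ± 9.05 (SD, n = 5) in old aortae. Its log2FC was -0.97 (SE 0.44, 95% interval -1.93 to -0.01), with an unadjusted p of 0.0473 and an edgeR adjusted p of 0.181. Without each mouse in turn it ranged from -1.16 to -0.58, the latter without young replicate 4, the mouse with the highest value (edgeR adjusted p = 0.441). *Chac1* did not pass, and its interval runs from close to 0 to beyond the lower bound of *Atf4*.

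*Trib3* encodes a pseudokinase that damps the response. It had 75.7, 69.4, 48.9, 64.7 and 88.1 normalized counts in young aortae and 67.0, 94.8, 53.1, 40.5 and 57.4 in old aortae. The highest value belonged to old replicate 2 and the lowest to old replicate 4. Its log2FC was -0.14 (95% interval -0.63 to 0.34, edgeR adjusted p = 0.740).

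*Sesn2* encodes a sestrin, which restrains the growth kinase mTORC1 when leucine is short. It had 235, 173, 185, 290.7 and 197 normalized counts in young aortae and 197, 186, 195, 214 and 194 in old aortae. The old values lay inside the young range, with log2FC -0.12 (95% interval -0.41 to 0.16, edgeR adjusted p = 0.601). The coefficient of variation was 22% in young and 5.16% in old aortae, and counting error alone would give 6.80% and 7.07%.

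*Ddit4* encodes REDD1, a restraint on mTORC1 that also answers to glucocorticoids and low oxygen. Its young values were 471, 231, 283, 638 and 827 normalized counts, and its old values 374, 555, 392, 510.0 and 487. The young aortae spanned a 3.57-fold range that took in all old aortae, and the dispersion of *Ddit4* exceeded that of 96.1% of tested genes. Its log2FC was -0.07 with a wide interval, -0.79 to 0.65 (edgeR adjusted p = 0.917).

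**Figure D2:**
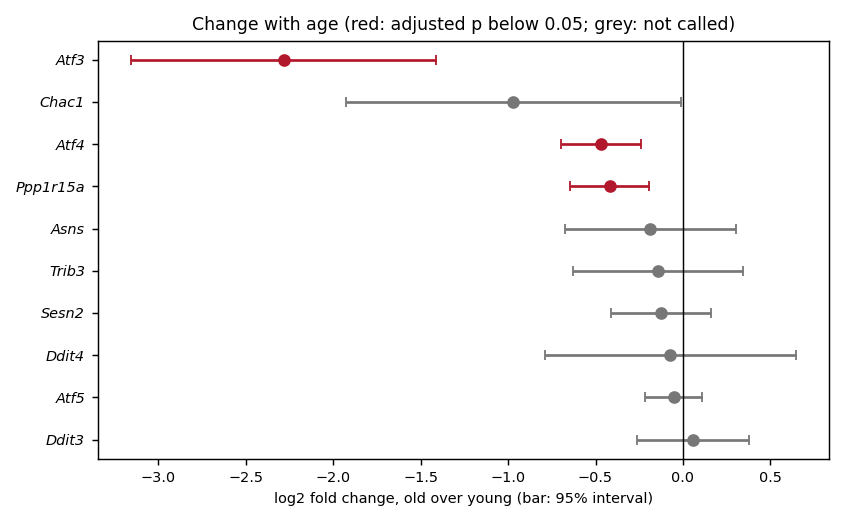
Log2 fold change of old over young aortae (horizontal axis) for the 10 genes, from edgeR; bars are 95% intervals, red marks an adjusted p below 0.05 and grey the genes that did not pass. The bar of *Atf3*, from -3.15 to -1.41, lies wholly below those of *Atf4* and *Ppp1r15a*, and those of *Ddit4* and *Chac1* are wide.

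Levels between genes were compared as normalized counts per kilobase of exonic sequence. In young aortae the order from the top was *Atf5* at 2080 ± 145 per kilobase (SD, n = 5), *Atf4* at 1849 ± 272, *Atf3* at 1265 ± 578, *Ppp1r15a* at 473 ± 64.8, *Ddit3* at 430 ± 89.2 and *Ddit4* at 279 ± 141. Well below came *Sesn2* at 62.2 ± 13.7, *Asns* at 36.2 ± 14.1, *Trib3* at 32.6 ± 6.79 and *Chac1* at 23.4 ± 14.7 per kilobase. Neighbours in this order overlapped between mice except *Ddit4* and *Sesn2*. In old aortae *Atf3* moved from the third place to the sixth, at 259 ± 89.9 per kilobase, with a range that overlapped that of *Ddit4*. *Atf3* stood above 95.5% of the 14540 genes with a known length in young aortae and above 76.5% in old aortae. For *Atf4* these shares were 97.0% and 96.0%, and for *Atf5* 97.4% in both groups.

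The counts of each gene were also expressed as a percentage of the *Atf4* counts of the same mouse, a ratio free of library scaling. It was chosen after the values were seen and was not tested. *Atf3* stood at 65.8% ± 37.1 of *Atf4* in young and 17.5% ± 4.84 (SD, n = 5) in old aortae, and the highest old value, 23.6%, was below the lowest young value, 24.7%. *Ppp1r15a* kept nearly the same proportion, 32.0% ± 2.94 in young and 33.1% ± 4.09 in old aortae. *Ddit3* was at 16.9% ± 2.58 and 24.4% ± 3.27, and *Atf5* at 96.4% ± 12.5 and 127% ± 14.0, with overlapping groups in each case. These higher percentages follow from the lower *Atf4*. In old aortae *Atf4* stood at 71.9% of its young normalized count, *Ddit3* at 103.6% and *Atf5* at 95.8%.

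Variation from mouse to mouse was examined after the mean of each age group was removed. The correlation of log2 normalized counts with *Atf3* over the 10 mice was computed for the other 9 genes, with exact permutation within age. Pearson's r ranged from -0.47 for *Trib3* to 0.17 for *Sesn2*. For *Trib3*, Spearman's rho was -0.50, with exact permutation p = 0.173 for r and 0.192 for rho, and r was -0.16 without young replicates 3 and 5, the mice farthest from the median of *Atf3*. For *Atf4*, r was -0.04 and rho -0.05 (exact permutation p = 0.921 and 0.942), and r was 0.24 without the same mice. None of the 9 relations passed, with Benjamini-Hochberg adjusted p = 0.921 for all of them by Pearson's r and 1 by Spearman's rho. Without young replicates 3 and 5, r was 0.60 for *Atf5* and 0.47 for *Ddit4* (exact permutation p = 0.228 and 0.215), against -0.10 and -0.30 over all 10 mice. For 6 of the 9 genes, *Atf4*, *Atf5*, *Ddit3*, *Ddit4*, *Asns* and *Ppp1r15a*, the sign differed between the young and the old group, so that the pooled value averages opposite signs. Values of r within a group are not given, since each holds 5 mice.

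Over all 45 pairs of the 10 genes, a set added after the data were seen, the highest correlation was that of *Ddit3* with *Chac1*. Their r was 0.78 and rho 0.80 over the 10 mice (exact permutation p = 0.0210 and 0.0192, Benjamini-Hochberg adjusted p = 0.609 and 0.756). Without young replicates 2 and 3, r was 0.74. The pair did not pass over the 45 pairs. Of all tested genes, those whose pattern was most like that of *Atf3* within age were *Uvssa* (r = 0.96 over 10 mice), *Gca* (0.95), *Etl4* (0.93), *Gm17971* (0.92) and *Pcdh17* (0.92), given as a description. They are the highest values picked from all tested genes, so that r is high by selection. *Gca*, *Gm17971* and *Pcdh17* had low means, 19.4, 20.5 and 13.7 normalized counts in young aortae. None of these 5 genes passed the test with age.

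The other genes of the response were read from lists, beginning with the sensors and the initiation factor. As a scale for every list that follows, edgeR called 4.99% of all tested genes lower and 6.48% higher in old aortae. An unadjusted p below 0.05 was reached by 3902 of the 14614 tested genes. Of 24 tested genes for the eIF2 kinases, their regulators, eIF2 and its exchange factor eIF2B, 2 were lower and none higher by edgeR, with 7 at an unadjusted p below 0.05. DESeq2 called 2 lower and 1 higher, and limma-voom 2 lower. The median log2 fold change was -0.04. *Ppp1r15b*, the constitutive partner of *Ppp1r15a*, fell from 2010.04 ± 135 to 1664 ± 51.2 normalized counts (SD, n = 5), log2FC -0.26 (SE 0.06, edgeR adjusted p = 0.00957). *Eif2s2*, the beta subunit of eIF2, had log2FC -0.18 (SE 0.05, edgeR adjusted p = 0.0454). The 4 kinases were named for their role after their values were seen, and none passed. Their log2 fold changes were 0.06 for *Eif2ak1* (heme), 0.25 for *Eif2ak2* (double-stranded RNA), -0.20 for *Eif2ak3* (the endoplasmic reticulum) and -0.02 for *Eif2ak4* (amino acid shortage).

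Among 21 other bZIP factors, the family whose members pair with ATF4 and ATF3, edgeR called 1 gene lower and none higher, with 4 at an unadjusted p below 0.05. DESeq2 called 2 lower, and limma-voom called none. The called gene was *Creb3l1*, a membrane-bound factor tied to collagen secretion, with log2FC -0.33 (SE 0.10, edgeR adjusted p = 0.0455). The median of the list was -0.07.

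Of 22 tested genes for amino acid synthesis, transport and one-carbon metabolism, 3 were lower and 1 was higher, with a median log2 fold change of -0.13. An unadjusted p below 0.05 in edgeR was reached by 9 of the 22. DESeq2 called 4 lower and 1 higher. The lower genes were *Bcat1*, which transfers the amino group of branched-chain amino acids, *Mthfd2*, a mitochondrial folate enzyme, and *Slc7a1*, a carrier of arginine and lysine. *Bcat1* fell from 117 ± 30.8 to 54.6 ± 14.5 normalized counts (SD, n = 5), *Mthfd2* from 527 ± 154 to 299 ± 74.8, and *Slc7a1* from 1332 ± 220 to 911 ± 131. Their log2 fold changes were -1.08, -0.81 and -0.54 (edgeR adjusted p = 0.00726, 0.0386 and 0.0163). *Mthfd1l*, a mitochondrial folate enzyme of the same route as *Mthfd2*, rose from 114 ± 19.6 to 274 ± 67.0 normalized counts, log2FC 1.27 (SE 0.18, edgeR adjusted p = 0.000669). These 2 enzymes of the mitochondrial folate route changed in opposite directions.

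Of 21 tested genes for tRNA synthetases and a tRNA exporter, 1 was higher and none lower by edgeR, DESeq2 and limma-voom, with 3 at an unadjusted p below 0.05. The gene was *Qars*, the glutaminyl-tRNA synthetase, with log2FC 0.16 (SE 0.05, edgeR adjusted p = 0.0384). The median was -0.03.

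The next list held 34 other tested genes, targets together with relatives of the members such as *Trib1*, *Sesn1* and *Chac2*. Of these, 3 were lower and 2 higher by edgeR, against 4.99% and 6.48% of all tested genes. The median log2 fold change of the list was 0.0027, and 9 of the 34 had an unadjusted p below 0.05 in edgeR. DESeq2 called 4 lower and 3 higher of 35. *Nupr1*, a small stress-induced chromatin protein, rose from 6870.2 ± 753 to 9579 ± 1666 normalized counts (SD, n = 5), log2FC 0.49 (SE 0.11, edgeR adjusted p = 0.0142). *Pck2*, the mitochondrial enzyme that makes phosphoenolpyruvate, rose with log2FC 0.23 (edgeR adjusted p = 0.0385). *Dusp8*, a phosphatase of stress-activated kinases, fell from 2696 ± 580 to 1343 ± 436 normalized counts, log2FC -1.0 (edgeR adjusted p = 0.0271). *Vegfa*, an endothelial growth factor, and *Trib1*, a relative of *Trib3*, each had log2FC -0.45 (edgeR adjusted p = 0.0133 and 0.00757).

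Genes of the endoplasmic reticulum chaperones and sensors gave no call. Of 20 tested, edgeR, DESeq2 and limma-voom each called 0, and 0 had an unadjusted p below 0.05 in edgeR. Their log2 fold changes ranged from -0.24 to 0.15 with a median of -0.06.

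**Figure D3:**
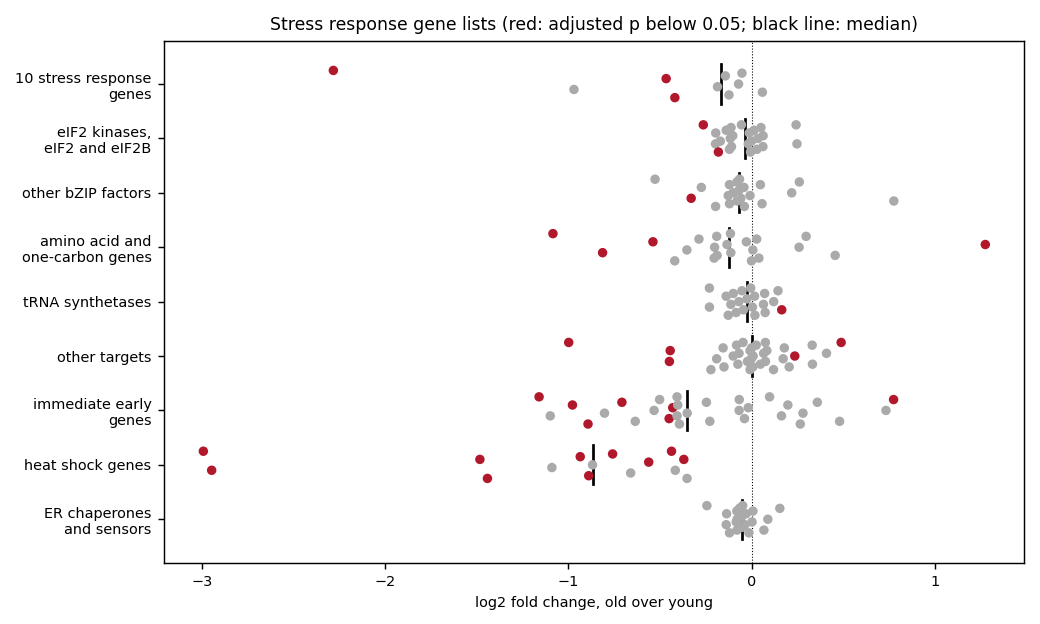
Log2 fold change of old over young aortae (horizontal axis) for the tested genes of each list; each point is 1 gene, red marks an edgeR adjusted p below 0.05, the black line is the list's median, and height within a row has no meaning. The 20 endoplasmic reticulum genes lie between -0.24 and 0.15, while all 15 heat shock genes lie below 0.

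Immediate early genes, which respond to growth signals and to tissue handling within minutes, include many that are induced together with *Atf3*. Of 31 tested, edgeR called 6 lower and 1 higher, and 15 had an unadjusted p below 0.05. Their median log2 fold change was -0.35. DESeq2 called 11 lower and 2 higher, and limma-voom 6 lower and 2 higher. *Fosb* fell from 926 ± 362 to 412 ± 133 normalized counts (SD, n = 5), *Ier5* from 825 ± 265 to 417 ± 72.4, and *Gadd45g* from 1052 ± 102 to 564 ± 188 (edgeR adjusted p = 0.0337, 0.0133 and 0.0252). *Junb* went the other way and rose from 1181 ± 260.3 to 2009 ± 370 normalized counts (edgeR adjusted p = 0.00957). The summed normalized counts of the list were 44693 to 67217 in young and 33617 to 55411 in old aortae. Young replicates 1 and 3 had the highest sums of this list and the highest *Atf3*. In the old group replicate 2 had the highest sum, 55411, with an *Atf3* of 532 normalized counts. Old replicates 4 and 5 had lower sums and an *Atf3* of 769 and 734. Old replicate 3 had the lowest sum, 33617, and the lowest *Atf3*, 315 normalized counts. The part of this list in the *Atf3* difference was not tested.

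All 15 heat shock genes had negative estimates, and 10 were called lower and none higher, with 14 at an unadjusted p below 0.05. DESeq2 called 14 and limma-voom 12 lower. The largest log2 fold changes were -2.99 for *Hspa1b*, -2.95 for *Hspa1a* and -1.48 for *Dnajb4* (edgeR adjusted p = 0.0145, 0.0134 and 0.00611). *Hspa1a* and *Hspa1b* are near-identical copies, so that the split of reads between them is uncertain. The sums were 100977 to 229225 normalized counts in young and 76722 to 112951 in old aortae. In the young group, replicate 1 had the lowest heat shock sum and the second highest *Atf3*, and replicate 2 the highest sum and the second lowest *Atf3*. Young replicate 5 had a sum of 149324 and the lowest young *Atf3*, 1117 normalized counts. Among old aortae, replicate 3 had the lowest sum, 76722, and the lowest *Atf3*, 315. Old replicate 1 had the highest old sum, 112951, with an *Atf3* of 437. The part of the heat shock genes in the *Atf3* difference was not tested.

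In a bulk sample, fewer cells of a type and less RNA per cell cannot be told apart. Endothelial markers had lower estimates in old aortae. All 9 were negative and none was at 0 in any group, with log2 fold changes from -0.91 to -0.04 and a median of -0.60. The receptor gene *Tek* was called by edgeR (log2 fold change -0.87, SE 0.23, adjusted p = 0.0381), and DESeq2 called 5 and limma-voom 4 of the 9 lower. Of the 9 markers, 7 had an unadjusted p below 0.05 in edgeR. Their summed normalized counts were 31617, 22150.1, 37566 and 24131 in young replicates 1 to 4 and 24320 in young replicate 5. In old replicates 1 to 5 the sums were 15586, 26219, 11487, 18590 and 13534. Young replicates 1 and 3 had the highest endothelial sums and the highest *Atf3*. In the old group, replicate 3 had the lowest endothelial sum, 11487, and the lowest *Atf3*, 315 normalized counts. Old replicate 2 had the highest old sum with an *Atf3* of 532 normalized counts, while old replicate 5, with a sum of 13534, had 734. The endothelial sums of the groups overlapped, and old replicate 2 lay within the young range. Without young replicate 3, the log2 fold change of *Atf3* was -2.06 (SE 0.37, edgeR adjusted p = 0.0107), and without young replicate 1 it was -2.16 (SE 0.42, edgeR adjusted p = 0.0127). The part of endothelial cells in the differences of *Atf3*, *Atf4* and *Ppp1r15a* was not tested.

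**Figure D4:**
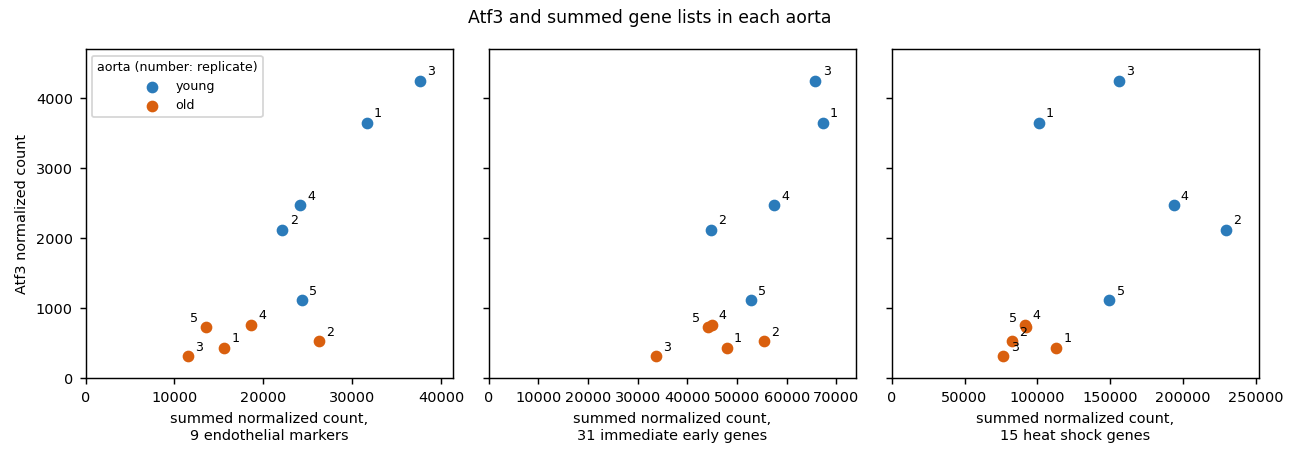
Normalized counts of *Atf3* (vertical axis) against the summed normalized counts of 9 endothelial markers, 31 immediate early genes and 15 heat shock genes (horizontal axes); each point is 1 aorta, numbered by replicate. Young replicates 3 and 1 have the highest *Atf3* and the highest endothelial sums, 37566 and 31617 normalized counts. Among old aortae, replicate 2 has the highest endothelial sum, 26219, and replicate 4 the highest *Atf3*, 769. Old replicate 3 has the lowest endothelial sum, 11487, and the lowest *Atf3*, 315.

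Other cell type lists also differed. Of 9 macrophage markers edgeR called 5 higher and none lower, DESeq2 9 higher and limma-voom 7 higher, and all 9 had an unadjusted p below 0.05 in edgeR, with sums of 8544 to 11021 normalized counts in young and 11200.1 to 22146 in old aortae. Of 5 tested T and B cell markers 2 rose, *Cd3g* and *Cd4*, and DESeq2 called 3 of 7 higher. Of 8 fibroblast markers *Col1a1* and *Pi16* fell and *Lum* rose (2 lower and 2 higher by DESeq2), and of 9 smooth muscle markers 1, *Smtn*, rose. Of 4 tested striated muscle markers 1, *Tnnt2*, rose, while the other 3 had negative estimates that did not pass and the median log2 fold change was -0.50. DESeq2 tested 6 of them and called 2 lower and 1 higher. None of 7 adipocyte, 4 Schwann cell and neuron and 5 red cell markers was called by edgeR, with 3, 1 and 0 at an unadjusted p below 0.05, and DESeq2 called 1 adipocyte marker lower. The part of these lists in the values of the 10 genes was not tested.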

How the data were processed

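Stranded mRNA libraries of 10 aortae were sequenced, 5 young and 5 old, each from a separate mouse. The authors trimmed reads with fastp 0.20.0, removed reads under 35 bases, aligned them to GRCm38 with STAR 2.7.0f and counted them per gene with featureCounts of Subread 1.6.4, and the deposited values are these raw counts. Their treatment of reads with several alignments is not given in the sources used here.

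Genes kept by filterByExpr (14614 of 28011 with a count) were compared with edgeR 4.0.16 under R 4.3.3, using a robust quasi-likelihood F test with TMM factors and no covariates. Benjamini-Hochberg adjustment ran over all tested genes, with a call below 0.05. Levels used the size factors of DESeq2 1.42.0. Correlations used log2(normalized count + 1) with exact permutation within age (14400 orders). Positions and exonic lengths came from GENCODE M21, while the authors used a later release of the same build. Promoters came from RefSeq on GRCm38.p6, which gave 11 promoters for the 10 genes.

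The members and lists were chosen with earlier results of these data known. Named genes were all 10 members, up to 3 called genes per list and direction with the largest fold change, and the 5 genes most like *Atf3*. The eIF2 kinases were an exception to this rule. All members passed the count filter, so the test planned for genes outside it was not needed. The alternatives were DESeq2, limma-voom (limma 3.58.1), other size factors, other filters, a replicate block and the omission of each mouse. The tests were first tested on simulated data.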

Additional observations from a re-analysis of the deposited data

Results flagged for a closer look

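Each of the 10 genes was checked in each group of 5 mice for an aorta far from the other 4, by Dixon's test. Of these 20 groups 1 was flagged, and chance alone flags about 1 in 20. It was *Asns* in young replicate 1, at 167.7 normalized counts, against 75.8 to 85.0 in the other young aortae. The gap to the nearest of them made up 0.90 of the range of the group.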

How the results depend on the processing

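Over 17 alternatives, a number that leaves out the replicate block described next, *Atf3* kept its call with log2 fold changes of -2.49 to -2.06, *Atf4* in all 17 with -0.52 to -0.39, and *Ppp1r15a* in 14. The other 7 genes were called in 0 of 17. Without each mouse in turn, 2 to 3 members and 1132 to 2367 genes were called (1676 with all mice). The largest number of genes came without young replicate 1 and the smallest without young replicate 4. DESeq2 called 2325 genes and the other tools, scalings and filters 1601 to 1699.

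The labels name no pairing of the mice by replicate number. Young and old mice of the same number had correlations of -0.34, -0.11, 0.08, -0.06 and 0.13 of their deviations from the group means. With the replicate block, 1 member, *Atf4*, and 1261 genes were called. *Atf3* then had a log2 fold change of -2.20 (edgeR adjusted p = 0.0703) and *Ppp1r15a* one of -0.42 (edgeR adjusted p = 0.0506). Such numbers carry no pairing, so this does not describe a weaker effect.

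Estimates near 0 changed sign without being called. *Ddit4* had 0.065 with limma-voom and 0.043 with the replicate block. Without each mouse in turn, log2 fold changes ranged from -0.025 to 0.16 for *Ddit3*, -0.25 to 0.19 for *Ddit4*, -0.30 to 0.085 for *Asns* and -0.20 to 0.0060 for *Sesn2*. Correlations with *Atf3* ranged from -0.40 to 0.15 for *Atf4*, -0.38 to 0.34 for *Atf5*, -0.50 to 0.24 for *Ddit4*, -0.42 to 0.29 for *Asns* and -0.56 to 0.14 for *Ppp1r15a*. Spearman's rho was 0 for *Atf5*, 0.1 for *Ddit4* and -0.3 for *Asns*. The cause of these sign changes was not tested. Depth limits *Chac1* most, with 9 to 77 counts per library.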
